A study of Mus musculus with 6 samples.

Results

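Hemoglobin carries oxygen in red blood cells as a tetramer of 2 alpha-type and 2 beta-type globin chains, each holding a heme group. Red cell precursors make these chains in very large amounts under the control of GATA1, KLF1 and their partners, and reticulocytes still carry globin mRNA after the nucleus has been lost. Skin epidermis holds no blood vessels of its own, so red cells are not a resident epidermal cell type. The 6 genes described here are the adult alpha-globin genes Hba-a1 and Hba-a2, the adult beta-globin genes Hbb-bs and Hbb-bt, the heme synthesis gene Alas2 and the red cell anion exchanger gene Slc4a1. They were taken by gene symbol from the 54532 genes of the count table. All 6 were found.

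Smart-seq2 libraries, which hold full-length cDNA copied from little RNA, were compared between 2 groups. By the study's methods, both came from the dissociated dorsal epidermis of male and female C57BL/6 mice at 4 weeks of age. Neither a transgene nor a treatment is named for these mice. The NCAM-enriched group (3 libraries, labelled as Merkel cells) was selected with PSA-NCAM beads and then sorted as NCAM-positive, DAPI-negative cells. The bulk skin group (3 libraries) was sorted as DAPI-negative cells of the same dissociated tissue without selection for NCAM. Its labels read total skin, whereas the study's methods name epidermis. DAPI enters cells with a broken membrane and was used to leave these out. Each library was made from 500 sorted events, and it is not stated whether the replicates are separate animals, so p-values measure only the spread between these libraries. The comparison asks how the NCAM-selected cells, in which Merkel cells are enriched, differ from unselected cells of the dissociated tissue.

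Library totals ran from 1343190 to 3798136 counts in the NCAM-enriched group and from 3333753 to 4481830 in bulk skin, so that a single count was worth 0.216 to 0.773 normalized CPM (counts brought to a common library size after TMM, edgeR's correction). The summed level of 10 Merkel cell markers was 482 to 1674 CPM in the NCAM-enriched libraries and 133 to 186 CPM in bulk skin, and 5 of the 10 were called higher, among them the keratin gene Krt20 and the transcription factor gene Pou4f3. Suprabasal keratinocyte markers were also higher, at 14318 to 37217 CPM summed over 10 genes against 1567 to 1753 CPM, and 7 of the 10 were called. The NCAM-enriched libraries thus held keratinocyte transcripts as well. Several red cell markers other than the globins were at or near 0 in both groups, as described further on.

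The 2 alpha-globin genes are near-copies of each other, and so are the 2 beta-globin genes, which bears on every count given here. In the GRCm38 annotation (GENCODE M21), Hba-a1 (ENSMUSG00000069919) lies at chr11:32283511-32284465 and Hba-a2 (ENSMUSG00000069917) at chr11:32296489-32297298, both on the plus strand. Hbb-bs (ENSMUSG00000052305) lies at chr7:103826534-103828096 and Hbb-bt (ENSMUSG00000073940) at chr7:103812524-103813996, both on the minus strand. Each of the 4 main transcripts has 3 exons. The coding sequences of Hba-a1 and Hba-a2 are 429 bases long and differ at 1 base, position 381 from the first base of the start codon. Those of Hbb-bs and Hbb-bt are 444 bases long and differ at 1 base, position 417. Neither difference changes an amino acid. The stretches below are exonic coding sequence, 20 bases to each side of the base that differs, which is in capitals. They are shown because this base is the only coding position by which a read can be given to either copy.
Hba-a1, chr11:32284323-32284363, plus strand: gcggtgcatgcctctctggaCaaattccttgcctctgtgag
Hba-a2, chr11:32297140-32297180, plus strand: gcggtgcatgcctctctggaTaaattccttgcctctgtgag
Hbb-bs, chr7:103826672-103826712, minus strand: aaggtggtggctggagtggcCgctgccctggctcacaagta
Hbb-bt, chr7:103812663-103812703, minus strand: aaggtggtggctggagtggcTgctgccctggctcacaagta

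Reads were 50 bases long, so each main transcript was divided into all of its 50-base windows, and each window was looked up in the annotated transcripts of all other genes. Of the 650 windows of Hba-a1, 211 (32.5%) were found in no other gene. For Hba-a2 this held for only 66 of 505 windows (13.1%), for Hbb-bs for 198 of 579 (34.2%) and for Hbb-bt for 273 of 654 (41.7%). All other windows of each gene were held by its partner copy and by no further gene. In the alpha pair, 50 windows of each gene span the differing coding base, and the rest of a gene's own windows lie at the transcript ends. For Hba-a1, 161 own windows begin at the start of its annotated transcript, which reaches further upstream than that of Hba-a2. The genome holds the same sequence upstream of Hba-a2, as given below, so reads aligned to the genome cannot be told apart there. In the beta pair, the gene-specific windows lie at both ends, and 381 windows in a row from the middle of each transcript are shared. How reads that match both copies were counted is not given in the sources used here. The split between copies is therefore uncertain, and the sum of each pair depends less on it.

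**Figure D1:**
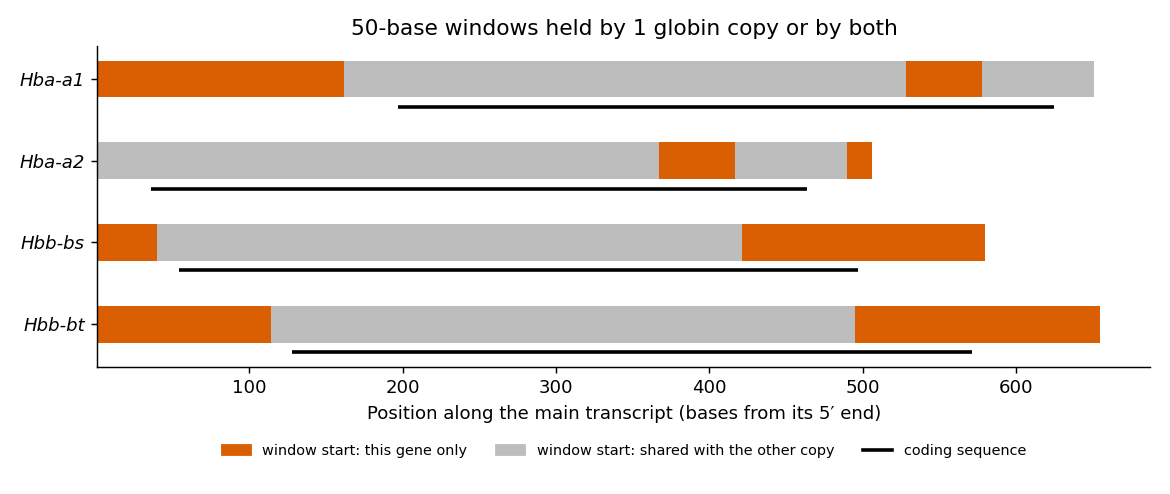
Map of the 4 adult globin transcripts, with the position along the main transcript in bases on the x axis. Orange marks starts of 50-base windows that no annotated transcript of another gene holds, grey marks starts shared with the partner copy, and the black line marks the coding sequence. Hba-a2 has the fewest windows of its own (66 of 505), and the coding sequence of each gene lies mostly under shared windows.

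Alas2 (ENSMUSG00000025270, chrX:150547375-150570638, plus strand, 11 exons) encodes the erythroid form of the enzyme that starts heme synthesis. Of its 1988 windows, 1713 (86.2%) were its own, and 372 of its exonic bases overlap those of the DNA repair gene Apex2 and the microRNA gene Mir3620. These libraries carry no strand mark, so reads from the overlap cannot be given to either gene. Slc4a1 (ENSMUSG00000006574, chr11:102348824-102366203, minus strand, 20 exons) encodes band 3, the main integral protein of the red cell membrane, which exchanges chloride for bicarbonate. All 4496 of its windows were its own.

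The sequence upstream of the globin genes is shown because the 4 genes moved together in these data. Promoters were taken from RefSeq (build GRCm38.p6, 250 bases before each gene's start), and 5 of the 6 genes had an entry. Slc4a1 had none. A set of 4 short motifs known from globin promoters was searched on both strands. GATA, the core bound by GATA factors, reads TATC on the other strand. CACCC, the core bound by KLF factors, reads GGGTG there, the CCAAT box reads ATTGG, and TATAA, the TATA box, reads as TTATA. The stretches below are genomic sequence of the coding strand that no annotated exon covers, and matches are in capitals. Hba-a1 is not shown separately, since its upstream sequence was identical to that of Hba-a2 at 247 of 247 aligned bases.
Hba-a2, chr11:32296369-32296488, plus strand: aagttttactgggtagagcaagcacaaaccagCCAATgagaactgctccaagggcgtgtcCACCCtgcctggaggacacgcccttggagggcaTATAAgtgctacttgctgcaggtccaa
Hbb-bs, chr7:103827929-103828011, minus strand: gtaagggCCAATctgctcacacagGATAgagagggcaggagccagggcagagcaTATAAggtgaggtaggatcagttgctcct
Hbb-bt, chr7:103813997-103814116, minus strand: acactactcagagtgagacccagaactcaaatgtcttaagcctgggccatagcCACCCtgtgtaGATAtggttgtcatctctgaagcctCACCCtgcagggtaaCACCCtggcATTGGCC

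The last capitals of the Hbb-bt stretch are an ATTGG followed by the first bases of a CCAAT that runs past its end. Over the full upstream windows, each of the 4 globin genes held all 4 motifs. The TATAA nearest the start lay 23 to 30 bases before it across these genes, and each had a CCAAT or ATTGG between 71 and 91 bases before it. The upstream window of Alas2 held 2 GATA, 3 CACCC and 2 TATAA matches and no CCAAT. Such short motifs are frequent: GATA was found in 53.6% of 32851 RefSeq promoters, CACCC in 52.0%, CCAAT in 33.8% and TATAA in 22.8%, and all 4 together in 2.15%. A match is a description of the letters and not a binding site.

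In bulk skin, the globin genes were among the more abundant transcripts, and in the NCAM-enriched libraries they were nearly absent. The 4 adult globins together had 3324, 3405 and 4268 counts in bulk skin libraries 1, 2 and 3, and 43, 2 and 5 counts in NCAM-enriched libraries 1, 2 and 3. The groups did not overlap, and 43 of the 50 NCAM-enriched counts came from library 1. Summed over the 4 genes, this was 979 ± 222 CPM (SD, n = 3) in bulk skin and 8.60 ± 12.3 CPM (SD, n = 3) in the NCAM-enriched group. Counts pooled over each group and scaled by the pooled library sizes gave a bulk skin level 128-fold that of the NCAM-enriched group (95% exact interval 97.2 to 173). Without NCAM-enriched library 1, the ratio was 659 (320 to 1638), and without NCAM-enriched library 3 it was 67.5 (50.4 to 92.6). Counts are PCR reads without molecular identifiers, so these intervals cover counting error only. In these pooled-cell libraries, fewer cells of a type and less RNA per cell cannot be told apart.

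The alpha-globin gene Hba-a1 had 1080, 1166 and 1324 counts in the bulk skin libraries and 16, 0 and 4 in the NCAM-enriched libraries. Its levels were 335, 252 and 363 CPM in bulk skin and 8.50, 0 and 1.14 CPM in the NCAM-enriched group. Even the highest NCAM-enriched library, library 1, was far below the lowest bulk skin library. The fitted log2 fold change, NCAM-enriched against bulk skin, was −6.60 ± 0.98 (SE), with an adjusted p of 0.0170 (edgeR's quasi-likelihood test, Benjamini-Hochberg over 13157 genes). The ratio of pooled counts was 104 (95% exact interval 67.3 to 171), 374 without NCAM-enriched library 1 and 61.7 without NCAM-enriched library 3.

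Hba-a2, which encodes the same alpha chain, had 808, 879 and 1012 counts in bulk skin and 0 counts in each NCAM-enriched library. Its bulk skin levels were 251, 190 and 277 CPM. It was called lower, with an adjusted p of 0.00228 by edgeR's quasi-likelihood test. The NCAM-enriched level was at least 524-fold lower, setting the group at the limit of 3 counts over its 3 libraries. Without NCAM-enriched library 3, the deepest of that group, the counts allowed only a bound of at least 249-fold.

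The adult beta-globin gene Hbb-bs had 991, 1019 and 1443 counts in bulk skin, or 308, 220 and 396 CPM. It had 27, 2 and 1 counts in the NCAM-enriched libraries, or 14.3, 1.55 and 0.284 CPM. Bulk skin library 3 was the highest and NCAM-enriched library 3 the lowest, and the groups did not overlap. The log2 fold change was −5.86 ± 1.09 (SE), with an adjusted p of 0.0321 by edgeR's quasi-likelihood test. The pooled ratio was 67.1 (95% exact interval 46.9 to 99.6). It was 32.9 without NCAM-enriched library 3, and 483 (165 to 2341) without NCAM-enriched library 1, which leaves only 3 counts in the group.

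Its partner Hbb-bt, the other adult beta-globin gene, had 445, 341 and 489 counts in bulk skin, or 138, 73.7 and 134 CPM, and 0 in every NCAM-enriched library. Its adjusted p was 0.00686 by edgeR's quasi-likelihood test, and its NCAM-enriched level was at least 248-fold lower against the limit of 3 counts over the group. Without NCAM-enriched library 3 that bound was at least 117-fold.

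All 4 globin genes were therefore called lower in the NCAM-enriched group, where 1.55% of the 13157 genes tested were called lower and 1.04% higher. No library of the NCAM-enriched group reached the bulk skin range for any of the 4, as for 19.3% of the genes tested (NCAM-enriched below bulk skin). These 4 passed the filter on low counts through their bulk skin counts, so a gene of this kind could pass it only by being higher there, and their number is not evidence about the 6 genes as a group. The calls for Hba-a1 and Hbb-bs were lost whichever bulk skin library was left out. Without bulk skin library 1, 2 or 3 in turn, the edgeR adjusted p was 0.110, 0.0903 and 0.105 for Hba-a1 and 0.179, 0.139 and 0.168 for Hbb-bs, at log2 fold changes that stayed between −6.79 and −5.69. For Hbb-bt it was 0.0772 without library 1 and 0.0651 without library 3, while the call was kept without library 2 (0.0405). Hba-a2 was called in all 17 alternative fits.

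**Figure D2:**
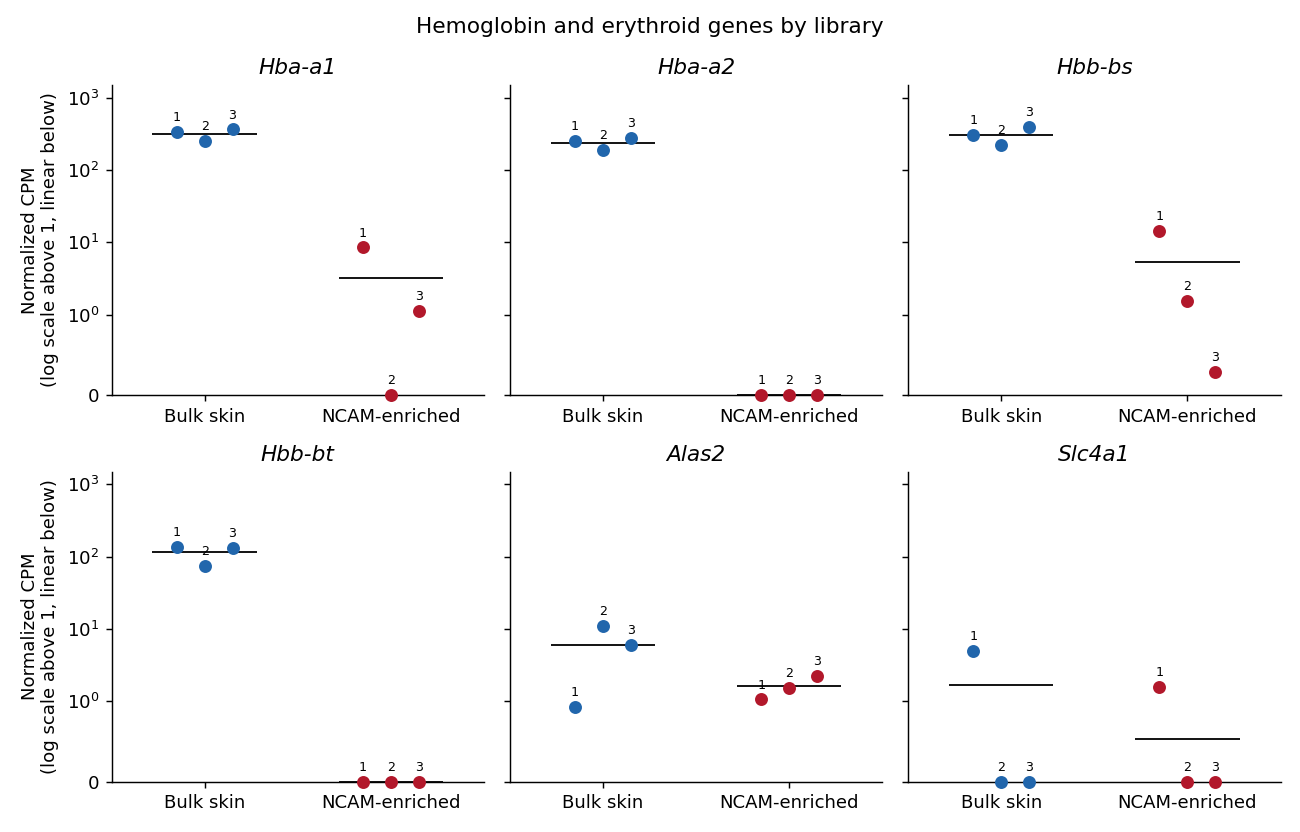
Normalized CPM of each of the 6 genes by library, on an axis that is logarithmic above 1 and linear below. Points are libraries, numbered within each group, and horizontal lines are group means (n = 3). For the 4 globin genes, the lowest bulk skin library (73.7 CPM, Hbb-bt) lay above the highest NCAM-enriched library (14.3 CPM, Hbb-bs), while the groups overlapped for Alas2 and Slc4a1.

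Since reads can fall to either copy, the counts of each pair were also summed and the whole table was fitted again. Alpha-globin counts (Hba-a1 and Hba-a2) were 1888, 2045 and 2336 in bulk skin and 16, 0 and 4 in the NCAM-enriched group. The summed log2 fold change was −7.42 ± 1.0 (SE), with an edgeR adjusted p of 0.0129. Beta-globin counts (Hbb-bs and Hbb-bt) were 1436, 1360 and 1932 in bulk skin and 27, 2 and 1 in the NCAM-enriched group, a log2 fold change of −6.32 ± 1.11 (SE) with an edgeR adjusted p of 0.0262. Both sums were thus called lower as well. As for Hba-a1 and Hbb-bs, neither sum was called with any bulk skin library left out, with adjusted p from 0.0761 to 0.0963 for alpha and from 0.126 to 0.161 for beta. Alpha counts exceeded beta counts in every bulk skin library, by ratios of 1.31, 1.50 and 1.21, whereas the NCAM-enriched counts were too few for such a ratio.

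The split of the alpha pair was steady across bulk skin and that of the beta pair less so. Hba-a2 took 42.8%, 43.0% and 43.3% of the alpha counts in bulk skin libraries 1, 2 and 3, with exact 95% intervals that overlapped (40.6 to 45.1%, 40.8 to 45.2% and 41.3 to 45.4%). Hbb-bt took 31.0%, 25.1% and 25.3% of the beta counts. Bulk skin library 1 stood above the other two here, with an interval of 28.6 to 33.5% against 22.8 to 27.5% and 23.4 to 27.3%. In the NCAM-enriched group, by contrast, every globin count fell on Hba-a1 or Hbb-bs. The Hba-a2 share was 0 of 20 counts, with an exact 95% upper limit of 16.8%, and the Hbb-bt share was 0 of 30 counts, with an upper limit of 11.6%. At the limit of 3 counts used for folds, 0 counts allow shares of up to 15% and 10%. These limits lie under the bulk skin shares, but 16 of the 20 and 27 of the 30 counts came from a single library, and PCR copies are not independent counts. This difference was not tested.

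**Figure D3:**
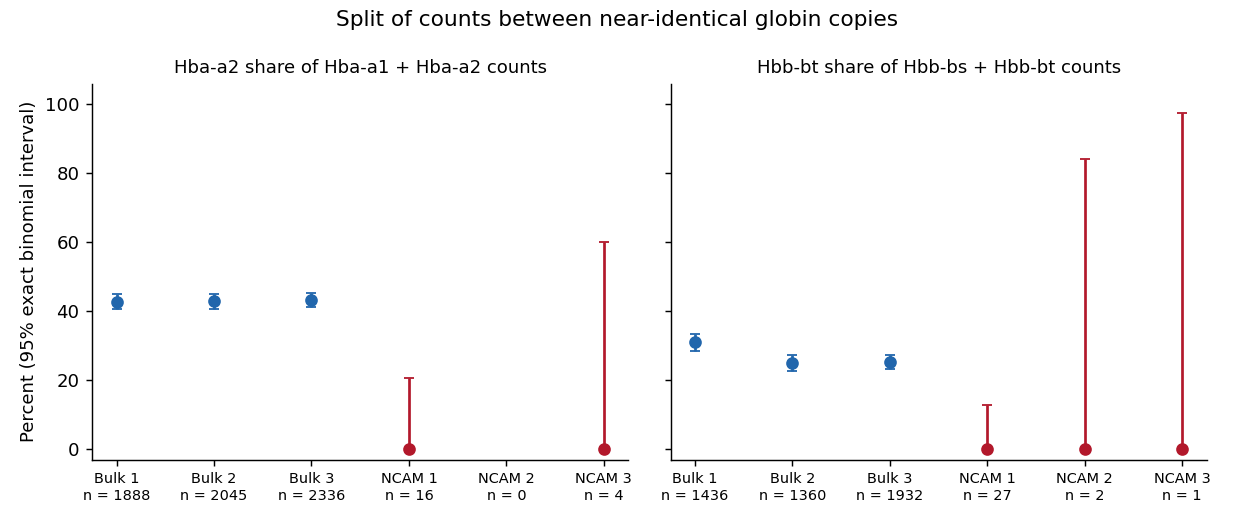
Share of each pair's counts, in percent, that fell on Hba-a2 (left) and Hbb-bt (right) in each library, with exact 95% binomial intervals and the pair's counts as n. Bulk skin shares were 42.8 to 43.3% for Hba-a2 and 25.1 to 31.0% for Hbb-bt, and the NCAM-enriched shares were 0 with wide intervals (no alpha count in NCAM-enriched library 2).

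Compared per length, bulk skin held 401 ± 114 CPM per kilobase of exon (SD, n = 3) of Hbb-bs, 390 ± 71.1 of Hba-a1, 359 ± 67.2 of Hba-a2 and 164 ± 51.3 of Hbb-bt. The first 3 means differed by less than their SD, and Hbb-bt was the lowest of the 4 in every bulk skin library. Within libraries, Hba-a1 also lay above Hba-a2 each time (413, 310 and 447 against 376, 285 and 416 in bulk skin libraries 1, 2 and 3). Alas2 at 2.50 ± 2.10 and Slc4a1 at 0.339 ± 0.586 CPM per kilobase were far below the globins, with ranges that overlapped each other (0.388 to 4.59 and 0 to 1.02). The order changed when levels were divided by the number of windows that only that gene holds. On that scale, mean bulk skin CPM per 100 own windows was 363 for Hba-a2, 155 for Hbb-bs, 150 for Hba-a1 and 42.2 for Hbb-bt. Hba-a2 thus moved from the third place to the first. However, 161 of the 211 own windows of Hba-a1 start in sequence that the genome also holds upstream of Hba-a2. The change of order therefore rests on the annotated transcript ends, and the relative level of the alpha copies cannot be read from these counts. By CPM, Hba-a1 ranked 407, Hbb-bs 433, Hba-a2 642 and Hbb-bt 1824 among the 13157 tested genes in bulk skin.

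Alas2, the erythroid heme synthesis enzyme, had 3, 51 and 22 counts in bulk skin libraries 1, 2 and 3 and 2, 2 and 8 counts in the NCAM-enriched libraries. Its levels were 0.931, 11 and 6.03 CPM in bulk skin and 1.06, 1.55 and 2.27 CPM in the NCAM-enriched group. Bulk skin library 1 was the lowest of all 6 libraries, so the groups overlapped. Alas2 did not pass the filter on low counts. In the fit of all genes with at least 1 count it had an edgeR adjusted p of 0.576. The ratio of pooled counts, bulk skin over NCAM-enriched, was 3.69 (95% exact interval 2.0 to 7.46), far under the ratios of the globins. Without bulk skin library 2 it was 2.03 (0.984 to 4.44), so the ratio rested on that library. Its bulk skin counts did not follow the globins, since Alas2 was highest in library 2, where the globin level was lowest. Apex2, which overlaps its exons, had 18, 109 and 41 counts in bulk skin, the same order of libraries as Alas2. In the NCAM-enriched group, the order was not shared. Apex2 had 36, 6 and 4 counts there and was lowest in library 3, where Alas2 was highest. The part of Apex2 reads in the Alas2 counts was not tested.

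Slc4a1, the red cell anion exchanger, had 16, 0 and 0 counts in bulk skin and 3, 0 and 0 in the NCAM-enriched group. It was detected only in library 1 of each group, at 4.97 and 1.59 CPM. It did not pass the filter, and in the fit of all genes with at least 1 count its edgeR adjusted p was 0.716. The pooled ratio of 3.11 has a counting interval of 0.890 to 16.7, so no difference was detectable at this depth.

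Together the 6 genes took 0.100 ± 0.0233% of the counts in bulk skin (SD, n = 3) and 0.00102 ± 0.00120% in the NCAM-enriched group. With every library thinned to the smallest total, 1343190 counts, the shares were 0.101 ± 0.0225% and 0.00104 ± 0.00135%. The globins made up 98.5 to 99.5% of these counts in bulk skin. In the NCAM-enriched libraries they made up 89.6%, 50% and 38.5%, where libraries 2 and 3 held only 4 and 13 counts of the 6 genes.

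Other genes of red cells and of heme and iron handling were read from 6 lists, which hold 86 genes, of which 84 were in the table and 50 were tested. None was called in either direction by edgeR, against 1.55% lower and 1.04% higher over all genes tested. At an unadjusted edgeR p below 0.05 there were 9 of the 50, of which 5 were lower, where 18.9% of all genes tested were below it. DESeq2 and limma-voom each called 3 lower and 2 higher of the 50, where DESeq2 called 7.05% of all genes fitted lower and 5.02% higher, and limma-voom 6.45% and 2.67%. The median log2 fold change of the 50 was 0.22, against −0.07 for all genes tested. The NCAM-enriched level lay below bulk skin without overlap for 9 of the 50, near the 19.3% of all genes tested.

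Among the other globin genes, 10 of 13 had no count in any library. These included the embryonic genes Hba-x, Hbb-y and Hbb-bh1 and the myoglobin gene Mb. Cygb, which encodes the widely expressed cytoglobin, was the only one tested. Its levels were 9.94, 33.7 and 21.1 CPM in bulk skin and 16.5, 35.5 and 6.81 CPM in the NCAM-enriched group, and it was not called (edgeR adjusted p = 0.954). The counts of the adult genes thus had no counterpart among the embryonic globins.

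Several genes used mainly by red cells and their precursors were at or near 0 also in bulk skin, where the adult globins were abundant. The red cell membrane genes Epb42 and Kel and the cytosolic Car1 and Trim10 had no count in any of the 6 libraries. Rhag, a Rhesus-associated membrane protein gene, had 0, 1 and 0 counts in bulk skin and 2, 0 and 0 in the NCAM-enriched group. Hemgn, a nuclear factor gene of erythroid precursors, had 1, 6 and 1 counts in bulk skin and none in the NCAM-enriched group. Of the factors that drive globin transcription, Gata1 had 32 counts in bulk skin library 2 and 2 in NCAM-enriched library 2, and Klf1 had 16 in bulk skin library 3 and none in the 5 other libraries. These genes were chosen for their low counts after values had been seen.

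Heme synthesis genes, which most cells need, did not follow the globins. Their summed level over 14 genes was 732 ± 45.8 CPM (SD, n = 3) in bulk skin and 718 ± 112 CPM in the NCAM-enriched group, and none of the 13 tested was called. Tmem14c, a mitochondrial porphyrin carrier gene, had 174, 167 and 169 CPM in bulk skin and 49.9, 44.0 and 127 CPM in the NCAM-enriched group, a log2 fold change of −1.20 ± 0.47 (SE) with an edgeR adjusted p of 0.213. Ppox, encoding the enzyme before the last step, had 14.0, 12.1 and 52.6 CPM in bulk skin and 70.7, 169 and 13.6 CPM in the NCAM-enriched group (edgeR adjusted p = 0.381). Set against the globins in the same libraries, the list had 2295, 3627 and 2549 counts in bulk skin beside 3324, 3405 and 4268 globin counts. In the NCAM-enriched libraries it had 1152, 1082 and 2489 counts beside 43, 2 and 5 globin counts.

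Of the 7 erythroid transcription factor genes tested, none was called by edgeR. Their median log2 fold change was 1.34, and all but Lmo2 had a fitted value above 0. The summed level of the 11 listed genes was 256 to 384 CPM in bulk skin and 847 to 1058 CPM in the NCAM-enriched group. Most of the NCAM-enriched sum came from Zbtb7a, Bcl11a and Ldb1, with means of 554, 205 and 103 CPM. Tal1 had 99, 0 and 0 counts in the NCAM-enriched libraries against 19, 24 and 0 in bulk skin. Of the genes not tested, Gata1, Klf1 and Lyl1 had 32, 16 and 26 counts in bulk skin, each in 1 library. Their NCAM-enriched counts were 2, 0 and 0, while Gfi1b had 0 in bulk skin and 1 there. Lmo2, a bridging protein of the GATA1 complex that endothelial and stem cells also use, had 63, 72 and 24 counts in bulk skin and 0, 1 and 0 in the NCAM-enriched group. Its edgeR adjusted p was 0.0850, while that of DESeq2 was 0.00314 and that of limma-voom 0.0206. Zbtb7a, a globin repressor gene that many cell types express, pointed the other way, with 151, 227 and 112 CPM in bulk skin against 538, 654 and 470 CPM (log2 fold change 1.76 ± 0.39, edgeR adjusted p = 0.0530, DESeq2 adjusted p = 0.00100).

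Of the 6 red cell membrane genes tested, Gypc, the glycophorin C gene that many other cells express too, had 16, 102 and 28 counts in bulk skin and none in the NCAM-enriched libraries. It was not called by edgeR (adjusted p = 0.0768) but was by DESeq2 (0.00379) and limma-voom (0.0180). The cytoskeletal gene Epb41 had 27.6, 58.2 and 60.0 CPM in bulk skin and 125, 103 and 100 CPM in the NCAM-enriched group (edgeR adjusted p = 0.197). Among 14 genes of the red cell cytosol and of maturation, Tent5c, a poly(A) polymerase gene also active in lymphoid cells, had 59, 76 and 88 counts in bulk skin and 0, 0 and 5 in the NCAM-enriched group (edgeR adjusted p = 0.0949). Epor, the erythropoietin receptor gene, had 5, 0 and 1 counts in bulk skin and 41, 17 and 23 in the NCAM-enriched group (edgeR adjusted p = 0.153, DESeq2 adjusted p = 0.0167). Epor values thus lay opposite to those of the globins. Prdx2, an abundant red cell antioxidant gene that other cells use as well, had 426, 291 and 239 CPM in bulk skin and 460, 377 and 256 CPM in the NCAM-enriched group (edgeR adjusted p = 0.852).

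Of the 9 iron and heme handling genes tested, none was called. Tfrc, the transferrin receptor gene through which erythroid precursors take up iron, had 30.4, 16.6 and 44.1 CPM in bulk skin and 19.1, 9.27 and 15.9 CPM in the NCAM-enriched group (edgeR adjusted p = 0.522). The ferritin light chain gene Ftl1 had 22.4, 24.2 and 17.8 CPM in bulk skin and 7.97, 0 and 1.70 CPM in the NCAM-enriched group (edgeR adjusted p = 0.307), and the heavy chain gene Fth1 1540, 1086 and 1366 CPM against 2234, 1623 and 720 CPM (edgeR adjusted p = 0.882). The groups overlapped for Tfrc and Fth1.

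**Figure D4:**
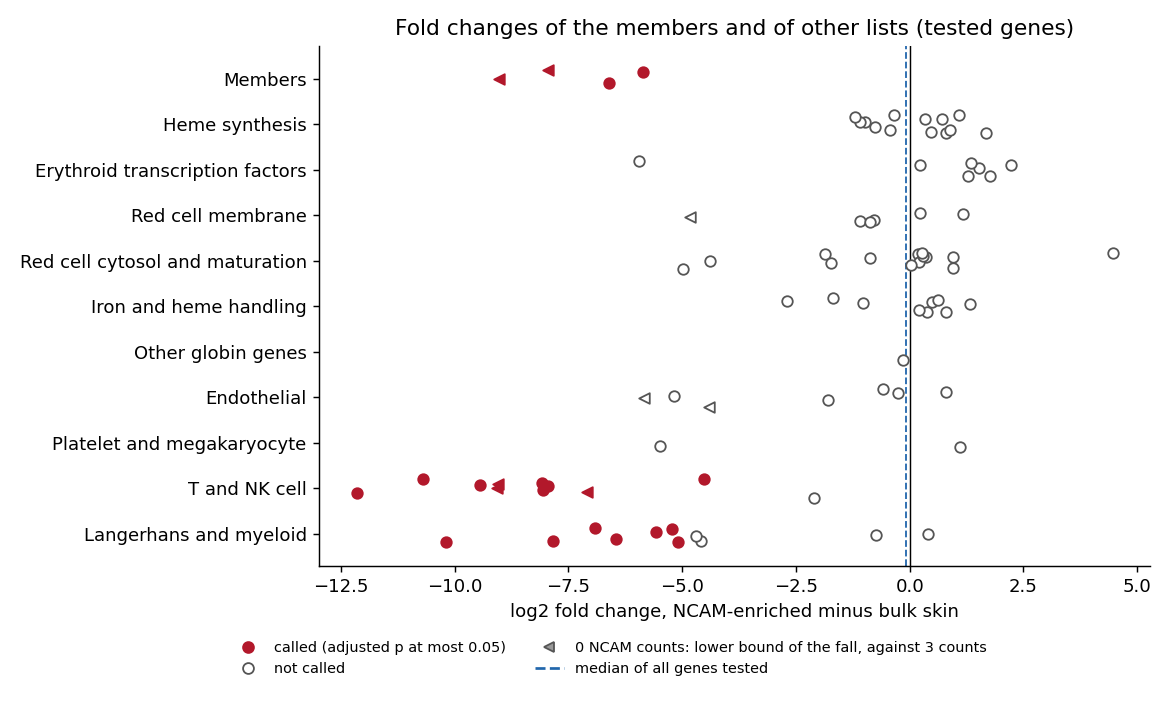
Log2 fold change (NCAM-enriched minus bulk skin, x axis) of each tested gene by list. Filled points were called by edgeR, open points were not, triangles are genes without an NCAM-enriched count, placed at their bound against 3 counts, and the dashed line is the median of all genes tested (−0.07). The 4 globins lie at −5.86 or lower, and no gene of the other red cell, heme and iron lists was called.

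Of the markers of other blood and vessel cells, most of those of the T and NK cell list and of the Langerhans and myeloid list fell with the globins. The summed level of 11 T and NK cell markers was 4366 to 4811 CPM in bulk skin and 42.5 to 169 CPM in the NCAM-enriched group, and 10 of the 11 tested were called lower. For example, the cytotoxic granule gene Nkg7 had 925, 833 and 763 CPM in bulk skin and 0, 0 and 0.284 CPM in the NCAM-enriched group, and Ctla2a 397, 361 and 504 CPM against 0.531, 0 and 0.851 CPM. Thy1, which was not called, had 296, 288 and 310 CPM against 4.78, 166 and 40 CPM. The Langerhans and myeloid list, 11 genes, stood at 12818 to 21274 CPM against 511 to 1064 CPM, with 7 called lower, among them the Langerhans cell gene Cd207 (265, 198 and 236 CPM against 0, 0.773 and 0 CPM) and the myeloid receptor gene Csf1r (158, 134 and 60 CPM against 0.531, 0.773 and 0.284 CPM). Fcer1g, an Fc receptor chain gene that was not called, had 714, 444 and 962 CPM against 71.2, 2.32 and 7.66 CPM. Epcam and Mfge8 of the same list overlapped between the groups and were not called. Epcam had 233, 222 and 255 CPM in bulk skin against 389, 132 and 413 CPM in the NCAM-enriched group. Mfge8 had 530, 481 and 263 CPM against 361, 321 and 75.8 CPM. Expressed as the NCAM-enriched mean in percent of the bulk skin mean, the 6 hemoglobin and erythroid genes stood at 1.09%, the T and NK cell list at 2.20% and the Langerhans and myeloid list at 5.04%. NCAM-enriched library 1, which held most of that group's globin counts, had the lowest T and NK cell sum of the 3 (42.5 CPM) and the highest Langerhans and myeloid sum (1064 CPM).

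Endothelial markers, 10 genes, had 89.4 to 155 CPM in bulk skin and 14.5 to 50.5 CPM in the NCAM-enriched group, and 0 of 7 tested were called, while 4 of the 7 lay lower without overlap (19.3% of all genes tested). The angiopoietin receptor gene Tek had 62, 198 and 35 counts in bulk skin and the sialomucin gene Emcn 28, 32 and 50, and both were at 0 in every NCAM-enriched library (edgeR adjusted p = 0.0526 and 0.0711). Cdh5, a defining marker, had 12, 4 and 14 counts in bulk skin while every NCAM-enriched library was at 0. Pecam1, another, had 16.1, 20.8 and 18.4 CPM against 12.2, 10.8 and 13.9 CPM. The platelet list, 12 genes, had 40.0 to 59.6 CPM against 1.14 to 55.6 CPM with 0 of 2 tested called, and 8 of its genes had under 10 counts in all. The integrin gene Itgb3 had 139, 207 and 105 counts in bulk skin and 0, 4 and 0 in the NCAM-enriched group (edgeR adjusted p = 0.0841), and Itga2b 53, 14 and 18 counts against 21, 53 and 3 (0.727). The defining platelet markers Ppbp and Gp6 were at 0 in every library. No neutrophil marker of 10 passed the filter, at 3.10 to 103 CPM summed in bulk skin and 0.531 to 16.5 CPM in the NCAM-enriched group. Most of the bulk skin sum was Ltf, with 0, 290 and 368 counts in bulk skin and 1, 0 and 0 in the NCAM-enriched group. S100a9 ran the other way, with 0, 0 and 1 counts against 0, 0 and 39, and Ngp and Retnlg were at 0 throughout. Basal keratinocyte markers, 8 genes, did not differ in this way, at 13153 to 17215 CPM in bulk skin and 8803 to 32110 CPM in the NCAM-enriched group with none called. The part of these cells in the globin difference was not tested.

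**Figure D5:**
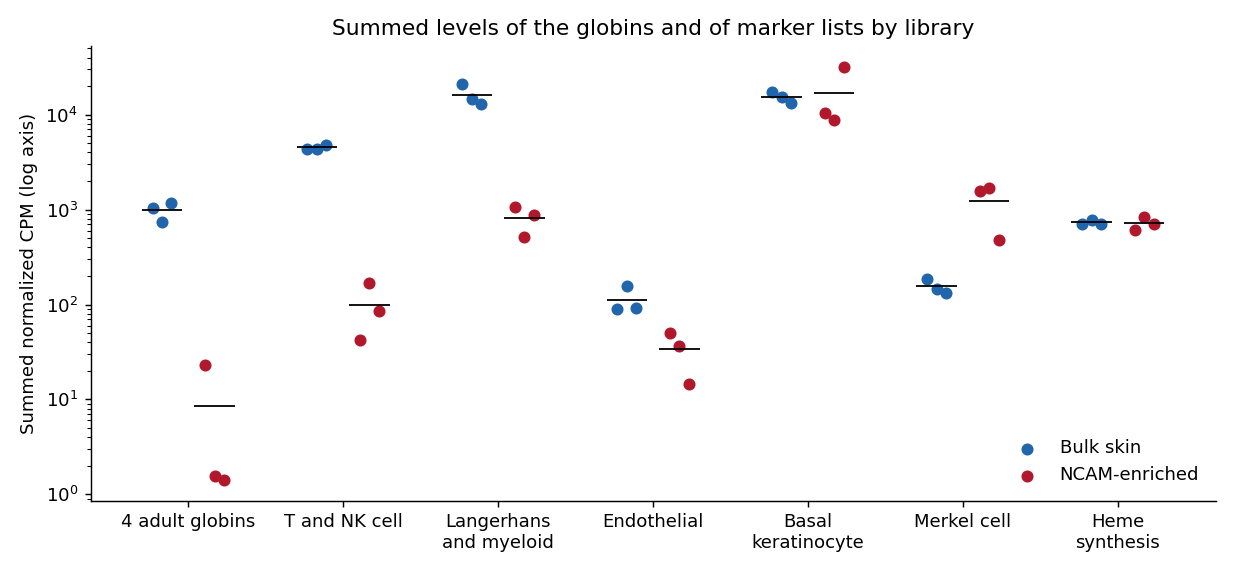
Summed normalized CPM by library (log axis) for the 4 adult globins and for lists of marker genes, with bulk skin in blue, NCAM-enriched in red and group means as lines (n = 3). The globins, the T and NK cell list and the Langerhans and myeloid list are lower in every NCAM-enriched library, the Merkel cell list is higher, and the heme synthesis list overlaps.

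The genes whose pattern over the 6 libraries was most like the mean pattern of the 4 globins were Cytip, Arhgap15 and Efcab1, at distances of 0.129, 0.156 and 0.162. The distance is Euclidean between centred and scaled log2(CPM + 1) values, and all libraries of a group share their sort. Cytip, a cytohesin-binding protein gene of leukocytes, had 582, 632 and 655 counts in bulk skin and 40, 16 and 35 in the NCAM-enriched group. Arhgap15 had 85, 100 and 100 counts against 3, 0 and 1, and Efcab1, an EF-hand protein gene, 45, 61 and 63 counts against 2, 0 and 1. Each thus had low counts in all 3 NCAM-enriched libraries and similar counts in the 3 bulk skin libraries, as the globins did.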

How the data were processed

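The deposited values were raw read counts per gene, made by the authors without normalization. By the study's methods, adapters and abundant sequences were removed with bbduk and bbmap, 50-base single-end reads were aligned to GRCm38 with STAR, and reads were counted with featureCounts. Neither the annotation release nor the strand setting nor the treatment of reads that match several genes is given in these sources. Reads that match both copies of a globin pair may have been dropped or assigned to either, which could lower a count or move it between copies.

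Groups were taken from the labels. Counts of all genes were fitted with edgeR 4.0.16 under R 4.3.3 (TMM normalization, group as the only term, quasi-likelihood F-test after filterByExpr), with the Benjamini-Hochberg adjustment over 13157 genes and calls at an adjusted p of at most 0.05. SE was derived from the test, as the log2 fold change without its sign over the root of F. Folds against a group without counts are bounds against 3 counts over the group, and intervals are exact at 95%. A library total of 1343190 to 4481830 counts set the precision of low counts. The script was tested on simulated data with large set changes and a smaller spread than in these libraries. That test checks the script and does not bear on the calls given here. Whether replicate numbers pair the libraries is not stated. For same-numbered libraries, the correlations of their deviations from the group means were 0.0231, 0.000232 and −0.00776. With 3 libraries a group, these values cannot show whether same-numbered libraries share an animal or a preparation. Alternatives were DESeq2 1.42.0, limma-voom (limma 3.58.1), other factors and filters, robust dispersion, a replicate block, summed copies and leaving out each library. No library was identical to another. Windows and motifs were searched in Python 3.11.15, and figures were drawn with matplotlib 3.10.9.

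The 6 genes and all lists were chosen with earlier results of these data known. Named by rule were the 6 genes, the 2 tested genes with the smallest p and the most abundant gene not called in each list, and the 3 genes of most similar pattern. As exceptions, of the Merkel cell and keratinocyte lists only Krt20 and Pou4f3 are named. Named outside it, after values were seen, were the red cell, embryonic globin, vascular, platelet and neutrophil genes given with counts at or near 0. The same holds for Gata1, Klf1, Lyl1, Gfi1b, Tal1, Bcl11a, Ldb1, S100a9, Apex2, Epcam and Mfge8.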

Additional observations from a re-analysis of the deposited data

How the results depend on the processing

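The 4 globin genes kept their direction in all 17 alternatives, with log2 fold changes of −8.62 to −6.14 for Hba-a1 and −8.73 to −5.25 for Hbb-bs. Their number called was 4 with every other tool, normalization and filter, and 1 to 4 with a library left out. Summing the copies leaves 2 features, both called. Genes called lower and higher were 928 and 661 by DESeq2, 849 and 351 by limma-voom, 741 and 769 without a filter beyond 1 count, 92 and 50 with the replicate block (which changed no call of a globin gene), and 13 to 733 and 0 to 1099 with a library left out. No gene was called higher by edgeR without bulk skin library 1 or 2, although 2115 and 2237 genes had an unadjusted p below 0.05 there. The wider red cell lists gave 3 lower and 2 higher by DESeq2 and by limma-voom, 1 and 2 without that filter, 0 and 1 with a minimum count of 30 or robust dispersion, and 0 to 4 and 0 to 2 with a library left out. Summed alpha counts ranged from −9.44 to −6.95 and beta counts from −9.19 to −5.71 (log2) with a library left out, and neither was called without bulk skin library 1, 2 or 3. The cause of these differences was not tested. Depth limits Alas2, Slc4a1 and every NCAM-enriched globin value, which rest on at most 30 counts a gene.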
